A study of Homo sapiens with 8 samples.

Results

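The genes described here are 10 members of the insulin-like growth factor (IGF) axis: the ligand IGF2, the receptors IGF1R and IGF2R, and the binding proteins IGFBP1 to IGFBP7. They were chosen by name from a list and not by a rule on their values, although earlier results of these data were known. They are 10 of the 20719 gene IDs counted. Ribosome footprints were measured in G401, an established rhabdoid kidney tumor cell line that lacks SMARCB1, a subunit of the SWI/SNF chromatin remodeling complex. One derivative carried a Tet-On, doxycycline-inducible SMARCB1 (the SMARCB1 line) and the other an inducible GFP in its place (the GFP line). Treatment was doxycycline (Dox) at 0.1 μg/ml, or DMSO as its control, and lasted 12 h, which gives the groups SMARCB1 DMSO, SMARCB1 Dox, GFP DMSO and GFP Dox with 2 libraries each. Each condition pooled several culture plates, and whether a line is 1 clone is not given in the sources used here. The study's methods describe the experiment as done in duplicate but do not say how the duplicates were separated, so p-values measure only the spread between these libraries, which may be technical.

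IGF signaling starts when IGF1 or IGF2 binds IGF1R, a tyrosine kinase that acts through the adaptors IRS1 and IRS2 on PI3 kinase and AKT. IGF2R, also known as the cation-independent mannose 6-phosphate receptor, takes up IGF2 for degradation and carries no kinase. The binding proteins are secreted, hold the ligands outside the cell and release them when proteases cut them. IGF2 is an imprinted fetal growth factor, and high IGF2 is well known in another childhood kidney tumor, Wilms tumor.

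The binding proteins share a cysteine-rich N-terminal domain, and one stretch of its coding sequence is printed here because most members of the family hold it. The pattern spans 7 codons, namely TGN, GGN, then TGN at both of the next positions, any 2 codons, and a last TGN, with N for any base. It was searched in reading frame on the coding strand of 1 canonical transcript per gene. It was present in 20 of 20046 coding genes (0.0998%), among them 6 of the 7 binding protein members. The pattern was written from the known cysteine motif of this domain, so its presence in the family is a description and not a result. IGFBP6 held no match to these letters. The pattern stands in capitals below, with 12 bases of flank on each side in lower case, 5′ to 3′ on the coding strand of GRCh38, first for the binding proteins with the most footprints and last for those with none.
IGFBP7, chr4:57110151-57110195, minus strand: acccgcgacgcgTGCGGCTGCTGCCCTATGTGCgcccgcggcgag
IGFBP3, chr7:45920910-45920954, minus strand: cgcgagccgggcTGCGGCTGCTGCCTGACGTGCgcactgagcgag
IGFBP4, chr17:40443880-40443924, plus strand: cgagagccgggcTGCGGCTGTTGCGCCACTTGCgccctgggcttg
IGFBP2, chr2:216633761-216633805, plus strand: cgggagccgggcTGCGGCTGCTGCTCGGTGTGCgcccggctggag
IGFBP1, chr7:45888809-45888853, plus strand: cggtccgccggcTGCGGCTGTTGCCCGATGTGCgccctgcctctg
IGFBP5, chr2:216694587-216694631, minus strand: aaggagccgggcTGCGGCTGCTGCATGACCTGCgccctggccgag
In each of the 6 genes the printed stretch lay within a single exon. The same pattern was found in other genes of the IGF pathway lists used below, namely IGFBPL1, HTRA1, CCN1, CCN2, CCN5, CCN6, CRIM1, ESM1 and KAZALD1, several of which are known to carry an IGFBP domain. Their relatives CCN3, CCN4 and HTRA3 held no match. Coding sequences of the 10 members shared 0 bases with other annotated genes, so overlapping genes could not have taken their footprints.

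The libraries held 5924443 to 14000039 counts on genes. The share of reads aligned to several places was 25.6% to 39.7% in 7 libraries but 56.4% in GFP Dox replicate 1, and results that rest on GFP Dox are given without that library where it changed a call. SMARCB1 had 0 counts in the 6 libraries without induction and 2553 and 1750 in SMARCB1 Dox, as the labels require. SMARCA4 and VIM were present in each library. In contrast, 10 markers of blood, endothelial, epithelial, differentiated kidney and liver cells summed to 0.500 to 2.32 CPM (counts scaled to a common library total, defined below). Of these 10 markers, 5 were at 0 throughout. RNA-seq was not analysed here, so a footprint level cannot separate the amount of an mRNA from the number of ribosomes on it, nor in a bulk sample fewer cells with the mRNA from less of it per cell.

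Footprints of the axis lay mostly on 2 binding proteins and 2 receptors. To compare genes of different length, levels are given in CPM per kilobase of coding sequence, where CPM are counts divided by the TMM-scaled library total and multiplied by 1000000. IGFBP7 had the highest mean level over the 8 libraries, at 365 CPM per kilobase, followed by IGFBP3 at 129.8. The receptors IGF1R and IGF2R followed at 63.8 and 59.4, and then IGFBP4 at 17.1, IGFBP6 at 8.67 and IGFBP2 at 1.42. Among the genes tested, IGFBP7 lay above 96.7% and IGFBP3 above 89.2% in this level, whereas IGFBP4 lay near the middle, above 49.8%. The place of IGFBP7 depended on the line, so its share holds only for the mean over all libraries. Its group means were 708 (SMARCB1 DMSO) and 656 (SMARCB1 Dox) CPM per kilobase, compared with 47.8 (GFP DMSO) and 47.9 (GFP Dox). IGFBP7 exceeded IGFBP3 in 4 of 8 libraries, which are those of the SMARCB1 line. IGF1R exceeded IGF2R in 5 of 8 libraries, and the ratio of these neighbours ranged from 0.916 to 1.34, so their order was not separated from their spread. IGFBP3 over IGF1R, IGF2R over IGFBP4, IGFBP4 over IGFBP6 and IGFBP6 over IGFBP2 held in 8 of 8 libraries.

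**Figure D1:**
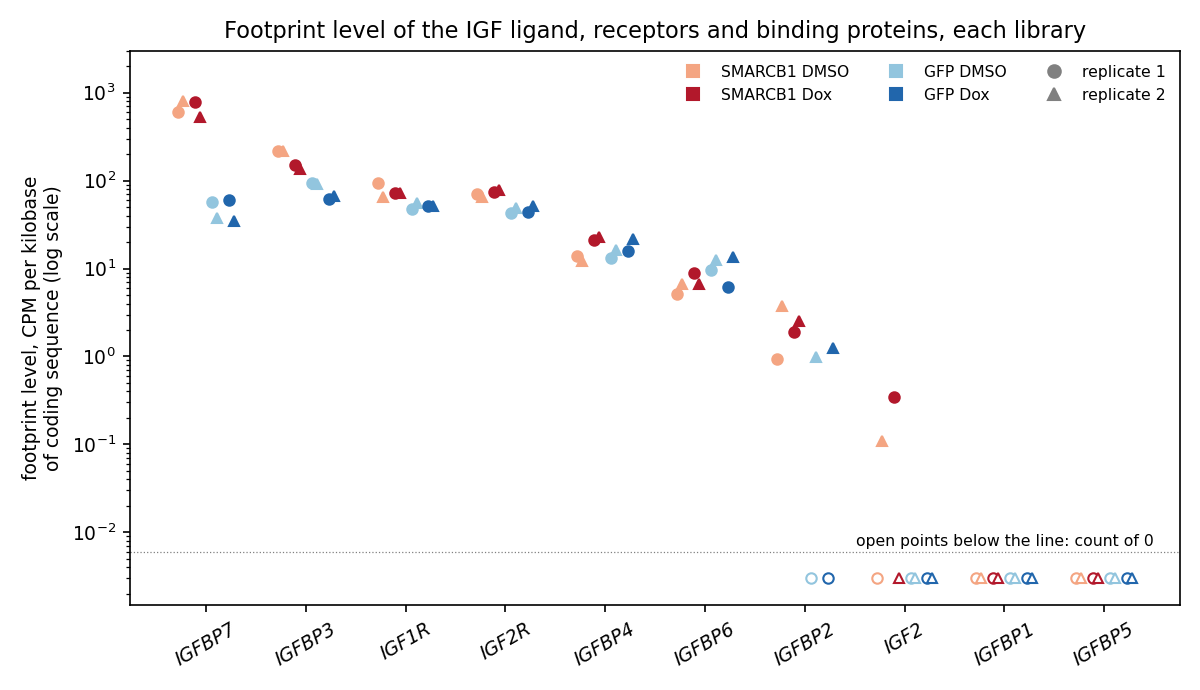
Footprint level of each IGF-axis gene in each library, in CPM per kilobase of coding sequence on a log axis, with color for the group, shape for the replicate, and open points for a count of 0. IGFBP7 falls into a high set of SMARCB1-line points and a low set of GFP-line points, and IGFBP1 and IGFBP5 show open points only.

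The ligand side was almost empty. IGF2 (chromosome 11, 2129112 to 2158391) had 4 counts in all 8 libraries together, 1 in SMARCB1 DMSO replicate 2 and 3 in SMARCB1 Dox replicate 1. The other ligand, IGF1, and the serum complex subunit IGFALS had 0 counts in each library, as did insulin. A count of 0 over all 8 libraries allows up to 3 counts, or 0.0392 CPM, and such limits cover counting error only. For a gene of the length of IGF1 that is 0.0597 CPM per kilobase, compared with 63.8 for IGF1R, the receptor it binds. At this depth IGF2 could not be compared between treatments, because no group had more than 3 counts.

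IGFBP1 (chromosome 7, 45888360 to 45893660), a liver protein known to be controlled by insulin, and IGFBP5 (chromosome 2, 216672105 to 216695549), known for binding to extracellular matrix, also had 0 counts in each library. Each of these genes has a close genomic partner in the family that was read. IGFBP1 lies 18584 bases from IGFBP3, which had 9711 counts in all libraries together. IGFBP5 lies 7668 bases from IGFBP2, which had 123. The 3 members without enough footprints for a test were thus IGF2, IGFBP1 and IGFBP5, and the remaining 7 passed the expression filter. IGFBP2 reached the minimum of that filter in 3 SMARCB1-line libraries and 1 GFP-line library, whereas the other 6 reached it in all 8.

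To ask whether SMARCB1 re-expression changed the axis, SMARCB1 Dox was compared with SMARCB1 DMSO. A call needed a fold change above 2 and an adjusted p below 0.05 from the quasi-likelihood test of edgeR, adjusted over 11097 genes by the Benjamini-Hochberg method. None of the 7 tested members was called, beside 0.018% of all genes tested. At an unadjusted p-value below 0.05 stood 2 members, IGFBP3 and IGFBP4, and DESeq2's Wald test called 0.

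IGFBP3 (chromosome 7, 45912245 to 45921874), the main IGF carrier of serum, had 210.0 and 210.1 CPM in SMARCB1 DMSO and 147 and 131 CPM in SMARCB1 Dox. The Dox libraries were both lower than the DMSO libraries. The log2 fold change was -0.60 (SE 0.22), with an unadjusted p of 0.0159 and an adjusted p of 0.765 in the quasi-likelihood test. In the GFP line IGFBP3 had 90.6 and 88.9 CPM with DMSO and 59.2 and 64.5 CPM with Dox. Here too both Dox libraries lay below both DMSO libraries. The log2 fold change was -0.54 (SE 0.22), with an unadjusted p of 0.0287 and an adjusted p of 1 in the quasi-likelihood test. The difference between these 2 Dox effects was -0.06 on the log2 scale (95% interval -0.72 to 0.60), so no difference between the lines was shown for it, and the lower IGFBP3 level passed the threshold in neither. Dox libraries that lie wholly below DMSO libraries were found for 18.3% of genes with the SMARCB1 construct and 13.2% with GFP.

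IGFBP4 (chromosome 17, 40443450 to 40457725), an inhibitory binding protein and the classical substrate of the protease PAPPA, had 10.7 and 9.43 CPM in SMARCB1 DMSO and 16.4 and 17.6 CPM in SMARCB1 Dox. Both Dox libraries were above both DMSO libraries, an order that 17.3% of all genes showed. The log2 fold change was 0.76 (SE 0.32), with an unadjusted p of 0.0335 and an adjusted p of 0.934 in the quasi-likelihood test. With DMSO the GFP line had 10.2 and 12.6 CPM and with Dox 12.4 and 16.7 CPM, and these groups overlapped. The log2 fold change there was 0.35 (SE 0.32), and the difference between the Dox effects was 0.41 (95% interval -0.56 to 1.38).

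The receptors stayed within narrow limits. IGF1R (chromosome 15, 98648539 to 98964530) had 388 and 267 CPM in SMARCB1 DMSO and 299 and 293 CPM in SMARCB1 Dox, and the Dox libraries lay between the DMSO libraries. Its log2 fold change was -0.14 (95% interval -0.66 to 0.38). IGF2R (chromosome 6, 159969082 to 160113507) had 535 and 492 CPM in SMARCB1 DMSO and 564 and 590 CPM in SMARCB1 Dox, with both Dox libraries above both DMSO libraries. Its log2 fold change was 0.17 (95% interval -0.32 to 0.66). For both receptors the interval excludes a 2-fold change in either direction, but not smaller ones.

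Of the remaining binding proteins, IGFBP7 had a log2 fold change of -0.11 (95% interval -0.78 to 0.56) upon SMARCB1 re-expression. IGFBP6, which prefers IGF2 over IGF1, had 0.40 (95% interval -0.60 to 1.39). IGFBP2, with 58 counts in the pooled SMARCB1 DMSO libraries and 41 in SMARCB1 Dox, had -0.18 (95% interval -2.50 to 2.14). The IGFBP2 interval is so wide that these libraries could have missed a 4-fold change. In the GFP line 0 of the 7 members were called, beside 0% of all genes tested, 1 member had an unadjusted p-value below 0.05, and DESeq2 called 0. The share of all genes rose without GFP Dox replicate 2, with no member called. That fit leaves GFP Dox with replicate 1 alone, the library with 56.4% of reads aligned to several places. Its calls cannot be told apart from traits of that library. The difference between the Dox effects of the lines was also called for 0 members, beside 0% of all genes, with 0 members at an unadjusted p-value below 0.05 and 0 called by DESeq2. Here too the share of all genes rose without GFP Dox replicate 2, under the same limit and again with no member called.

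**Figure D2:**
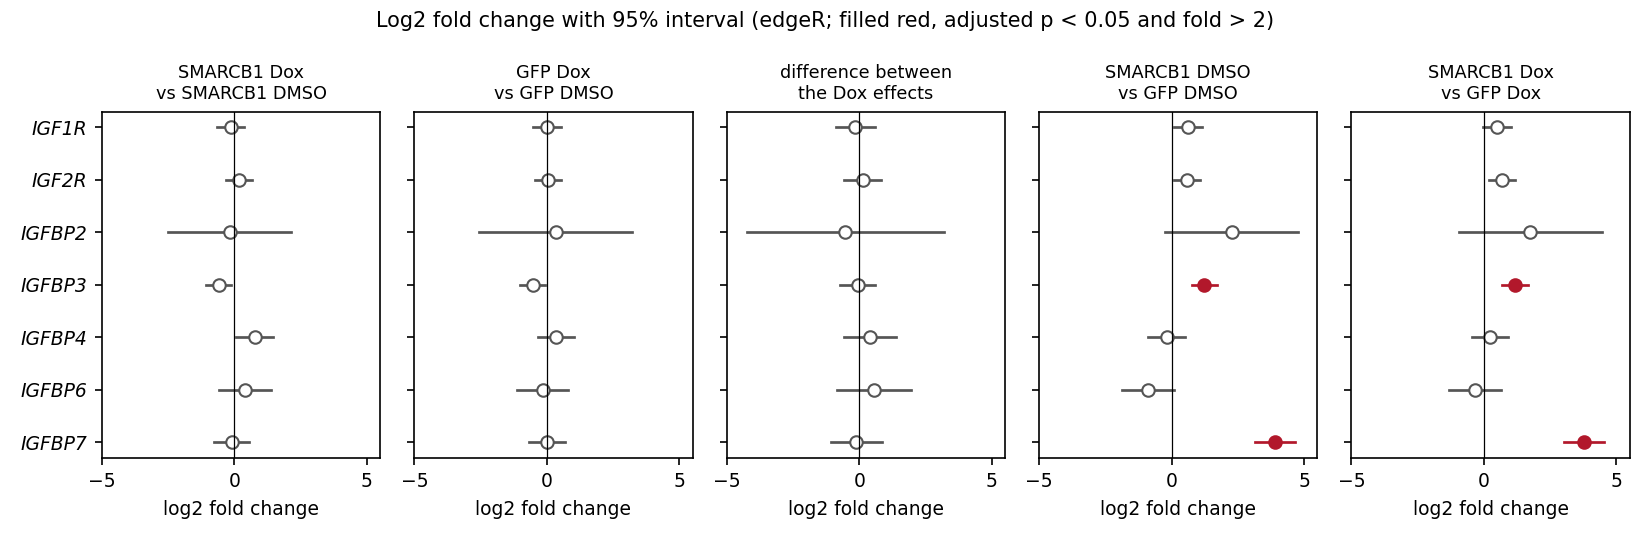
Log2 fold change of the 7 tested members with its 95% interval in the 5 comparisons, from edgeR's quasi-likelihood fit. In the comparisons of Dox with DMSO and in their difference no point is filled, whereas IGFBP3 and IGFBP7 are filled red, which marks a call, in both comparisons of the lines.

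The lines themselves differed in the binding proteins. SMARCB1 DMSO was compared with GFP DMSO, where neither transgene was induced, and SMARCB1 Dox with GFP Dox in libraries that the first comparison did not use, although both share 1 estimate of the spread. Of the 7 members tested, 2 were called higher in SMARCB1 DMSO, IGFBP7 and IGFBP3, and 0 lower, beside 2.49% of all genes called higher and 4.97% called in either direction. The same 2 members were called higher in SMARCB1 Dox, beside 3.1% of all genes called higher, 2.98% called lower and 6.08% in either direction. In the Dox comparison, the line and the induced protein cannot be told apart. In the DMSO comparison, the line, its construct and any difference between cultures cannot be told apart.

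IGFBP7 (chromosome 4, 57030773 to 57110385), a matrix-associated member with low affinity for IGFs, showed the largest of these differences. It had 521 and 688 CPM in SMARCB1 DMSO and 673 and 447 CPM in SMARCB1 Dox. GFP DMSO had 49.3 and 32.4 CPM, and GFP Dox had 51.8 CPM from 313 counts and a lower level from 203 counts. The lowest SMARCB1-line library, at 447 CPM, stood far above the highest GFP-line library, at 51.8 CPM. The difference was 14.8-fold under DMSO (log2 3.89, SE 0.35, adjusted p = 4.82e-06 in the quasi-likelihood test) and 13.7-fold under Dox (log2 3.78, SE 0.35, adjusted p = 7.75e-06). When any single library was left out, the log2 difference stayed between 3.61 and 4.22 under DMSO and between 3.44 and 4.22 under Dox, and IGFBP7 stayed called in both.

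IGFBP3 was higher in the SMARCB1 line to a smaller extent. Its 4 SMARCB1-line libraries ranged from 131 to 210.1 CPM and its 4 GFP-line libraries from 59.2 to 90.6 CPM, without overlap. The difference was 2.34-fold under DMSO (log2 1.23, SE 0.22, adjusted p = 0.00281 in the quasi-likelihood test) and 2.24-fold under Dox (log2 1.17, SE 0.22, adjusted p = 0.00422). The call rested on single libraries. Under DMSO it was lost without GFP DMSO replicate 1 (adjusted p = 0.0638) or without GFP DMSO replicate 2 (adjusted p = 0.0784), and under Dox without SMARCB1 Dox replicate 1 (adjusted p = 0.0780). The log2 difference itself ranged from 1.21 to 1.24 under DMSO and from 1.08 to 1.25 under Dox when a library was left out, so its size changed little.

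IGF1R and IGF2R were also higher in each of the 4 SMARCB1-line libraries than in each of the 4 GFP-line libraries, but neither was called. IGF1R ranged from 267 to 388 CPM in SMARCB1-line libraries and from 194 to 229 CPM in the GFP line, a log2 difference of 0.63 under DMSO (SE 0.24, adjusted p = 0.213 in the quasi-likelihood test) and 0.49 under Dox (SE 0.24, adjusted p = 0.305). IGF2R ranged from 492 to 590 CPM and from 323 to 386 CPM, a log2 difference of 0.57 under DMSO (SE 0.23, adjusted p = 0.252) and 0.69 under Dox (SE 0.23, adjusted p = 0.101). In total, 4 of the 7 tested members had every SMARCB1-line library above every GFP-line library and 0 had them below, compared with 8.61% and 8.95% of all genes tested. Between the DMSO groups alone, 4 members lay wholly higher and 1, IGFBP6, wholly lower (22% and 22.8% of all genes). Between the Dox groups 5 lay higher and 0 lower (23.2% and 22.9%). IGFBP2 was among these 5. It reached the filter minimum in 3 SMARCB1-line libraries and 1 GFP-line library, so its entry favored that direction.

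Over 4 libraries each, the other binding proteins overlapped between the lines. IGFBP4 ranged from 9.43 to 17.6 CPM in SMARCB1-line libraries and from 10.2 to 16.7 CPM in the GFP line, with a log2 difference of -0.19 under DMSO and 0.22 under Dox. IGFBP6 (chromosome 12, 53097436 to 53102345) had 24 to 82 counts per library in the SMARCB1 line and 29 to 141 with GFP. Its log2 difference was -0.90 under DMSO (95% interval -1.88 to 0.07) and -0.35 under Dox (95% interval -1.33 to 0.64), neither of which passed the test. IGFBP2 (chromosome 2, 216632828 to 216664436) had 6 and 52 counts in SMARCB1 DMSO, 24 and 17 in SMARCB1 Dox, 0 and 15 in GFP DMSO, and 0 and 9 in GFP Dox. The pooled ratio of the lines was 4.38 (95% exact binomial interval 2.78 to 7.15, which covers counting error only), but the libraries within a group differed by as much as the lines. The fitted log2 difference of IGFBP2 was 2.26 under DMSO (SE 1.17, adjusted p = 0.443 in the quasi-likelihood test) and 1.74 under Dox (SE 1.26, adjusted p = 0.506).

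**Figure D3:**
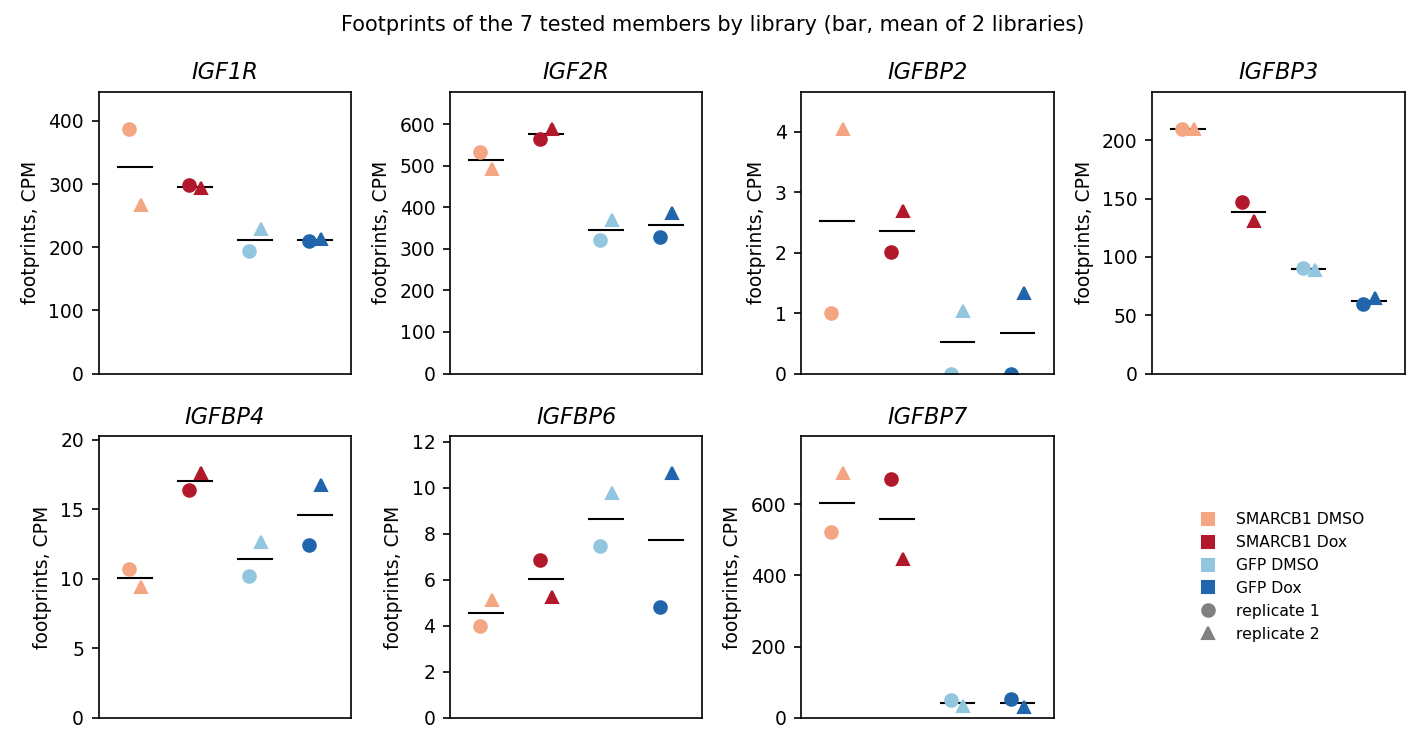
Footprints of the 7 tested members in CPM on linear axes that start at 0, by group and library, with a bar at the mean of the 2 libraries. IGFBP7, IGFBP3, IGF1R and IGF2R lie higher in every SMARCB1-line library than in any GFP-line library, and IGFBP3 lies lower under Dox in both lines.

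The makeup of the binding protein footprints also differed between the lines. These shares follow from the levels given above, mostly that of IGFBP7, and are not a further result. Summed over the 7 binding proteins, the level was 691 to 1046 CPM per kilobase with the SMARCB1 construct and 139 to 174 with GFP. IGFBP7 made up 72.0% to 81.0% of that sum in SMARCB1-line libraries and a median of 29.2% in those of the GFP line. IGFBP3 was 15.7% to 25.7% of the sum in SMARCB1-line libraries and 42.6% to 57.6% in GFP-line libraries, the reverse of its own level. IGFBP4, at 7.55% to 15.6% of the sum in the GFP line, was 1.16% to 3.29% of it in SMARCB1-line libraries, although its own level overlapped between the lines.

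Other genes of the IGF pathway were examined in 5 lists with 73 genes, none of them a member, of which 50 passed the expression filter. Upon SMARCB1 re-expression 0 of the 50 were called, beside 0.018% of all genes, with 2 at an unadjusted p-value below 0.05 and 0 called by DESeq2. Their median log2 fold change was 0.07, compared with -0.02 over all genes tested. In the GFP line 0 were called as well, beside 0% of all genes, with 1 at an unadjusted p-value below 0.05 and 0 by DESeq2. Between the lines, 4 were called higher and 2 lower under DMSO, and 6 higher and 3 lower under Dox, with median log2 differences of 0.12 and 0.21 compared with 0.02 and -0.01 over all genes. All 4 called higher under DMSO, PCSK6, PAPPA, STC2 and PLAGL1, passed the expression filter through the SMARCB1 line alone. They were also among the 6 called higher under Dox, so these counts partly reflect how the genes entered. Of all genes, 2.49% were called higher and 2.49% lower under DMSO, and 3.1% and 2.98% under Dox.

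The list of proteases covered those that cut binding proteins, their inhibitors and proprotein convertases. It held 4 of the 6 calls under DMSO and 4 of the 9 under Dox. PAPPA, STC2 and PCSK6 among these passed the expression filter through the SMARCB1 line alone, so the counts partly reflect how they entered. Of the 8 genes tested in that list, PAPPA, STC2 and PCSK6 were called higher and HTRA1 lower in the SMARCB1 line, under DMSO and under Dox, where the shares of all genes were those just given. PAPPA, the metalloprotease that cleaves IGFBP4, had 61 and 125 counts in SMARCB1 DMSO and 57 and 62 in SMARCB1 Dox, and 0 in each GFP-line library. Against the 3 counts that a pooled count of 0 allows, it was at least 87.4-fold higher under DMSO and at least 27.8-fold higher under Dox. With 1 of the 2 GFP libraries left out, the DMSO bound fell to 40.0 or 47.4 and the Dox bound to 13.1 or 14.7. These bounds, and those given below, set a limit only for the group at 0. They leave out the counting error of the SMARCB1-line counts and the spread between libraries. The adjusted p in the quasi-likelihood test was 9.6e-05 under DMSO and 0.000627 under Dox.

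STC2, a secreted inhibitor of PAPPA, had 15 and 69 counts in SMARCB1 DMSO, 140 and 47 in SMARCB1 Dox, 1 in each GFP DMSO library and 0 in each GFP Dox library. The ratio under DMSO was 59.2 (95% exact binomial interval 15.9 to 497, counting error only) and fell to 33.2 without SMARCB1 DMSO replicate 2. Under Dox STC2 was at least 43.7-fold higher, or at least 20.6-fold without GFP Dox replicate 2. The protease and its inhibitor were thus both read in the SMARCB1 line, whereas with GFP neither exceeded 1 count per library. STC2 was also higher in both SMARCB1 Dox libraries than in both SMARCB1 DMSO libraries, by 1.25 on the log2 scale (SE 0.56), with an unadjusted p of 0.0445 and an adjusted p of 0.998 in the quasi-likelihood test.

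PCSK6, a proprotein convertase, had 66 and 104 counts in SMARCB1 DMSO and 199 and 95 in SMARCB1 Dox. GFP DMSO had 0 and 3 counts and GFP Dox 0 and 1. The ratio was 79.9 under DMSO (95% exact binomial interval 26.9 to 391) and 206 under Dox (interval 36.7 to 8171), where 1 count carries the denominator. Both intervals cover counting error only. Without GFP DMSO replicate 1 the DMSO ratio was 43.3, and without GFP Dox replicate 1 the Dox ratio was 109. Without the replicate 2 libraries of GFP, the GFP count was 0 and the bounds were at least 36.6-fold and 32.4-fold. PAPPA, STC2 and PCSK6 passed the expression filter through the SMARCB1 line alone, so a difference in that direction was built into their entry.

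HTRA1, a secreted serine protease whose coding sequence carries the pattern printed above, went the other way. It had 4 and 20 counts in SMARCB1 DMSO, 17 and 6 in SMARCB1 Dox, 596 and 792 in GFP DMSO, and 453 and 429 in GFP Dox. The log2 difference was -5.40 under DMSO (SE 0.38, adjusted p = 4.73e-07 in the quasi-likelihood test) and -5.79 under Dox (SE 0.38, adjusted p = 2.64e-07). The groups did not overlap. Without SMARCB1 DMSO replicate 2 the DMSO difference was -6.26. HTRA1 and the 3 genes above were called in each alternative except a minimum of 10 counts in every library, which left them untested.

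**Figure D4:**
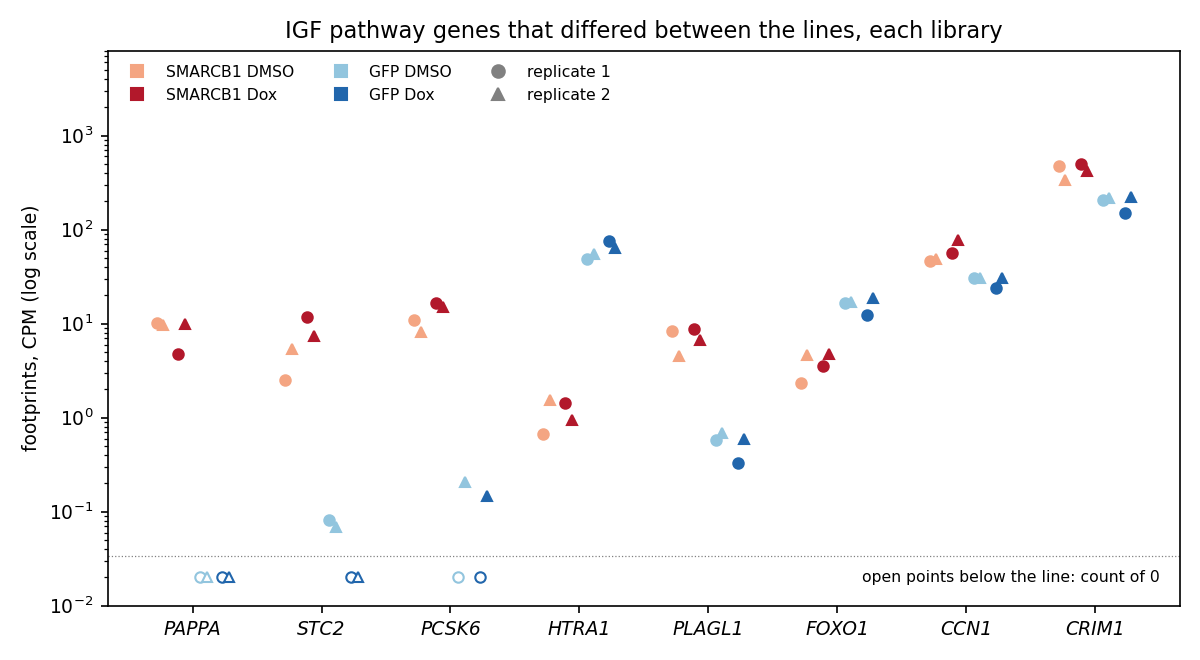
Footprints in CPM on a log axis, by library, of the 8 IGF pathway genes outside the axis with the smallest p-values among those called between the lines, with open points for a count of 0. PAPPA, STC2, PCSK6, PLAGL1, CCN1 and CRIM1 are higher and HTRA1 and FOXO1 lower in the SMARCB1-line libraries.

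Outside the proteases, PLAGL1, an imprinted zinc finger transcription factor, was called higher in the SMARCB1 line and FOXO1, a transcription factor that AKT keeps out of the nucleus, was called lower. PLAGL1 had 4.52 to 8.79 CPM in SMARCB1-line libraries and 0.331 to 0.695 CPM in the GFP line, with a log2 difference of 3.29 under DMSO (SE 0.60, adjusted p = 0.00331 in the quasi-likelihood test) and 4.02 under Dox (SE 0.68, adjusted p = 0.00177). It too passed the filter through the SMARCB1 line alone, and its DMSO call was lost without GFP DMSO replicate 1 (adjusted p = 0.0617) or replicate 2 (adjusted p = 0.0513). FOXO1 had 2.34 to 4.76 CPM in SMARCB1-line libraries and 12.2 to 18.9 CPM in the GFP line, with log2 differences of -2.20 (SE 0.42, adjusted p = 0.00412) and -1.93 (SE 0.42, adjusted p = 0.0109). The DMSO difference was -2.84 without SMARCB1 DMSO replicate 2. Its DMSO call was lost without SMARCB1 DMSO replicate 1 (adjusted p = 0.0538), and its Dox call without SMARCB1 Dox replicate 1 (adjusted p = 0.168) or replicate 2 (adjusted p = 0.0558).

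The matricellular protein CCN1 and the membrane protein CRIM1, whose coding sequences also hold the IGFBP pattern, were called higher in SMARCB1 Dox than in GFP Dox. Their log2 differences were 1.29 (SE 0.26, adjusted p = 0.00683 in the quasi-likelihood test) and 1.31 (SE 0.27, adjusted p = 0.00735). Each call was lost without 1 library, that of CCN1 without SMARCB1 Dox replicate 2 (adjusted p = 0.117) and that of CRIM1 without SMARCB1 Dox replicate 1 (adjusted p = 0.103). Under DMSO they differed by 0.62 (adjusted p = 0.267) and 0.93 (adjusted p = 0.0622), which was not a call except for CRIM1 without SMARCB1 DMSO replicate 2 (adjusted p = 0.0499), and the change of the line difference between DMSO and Dox was not called for either. The ninth gene called under Dox, the PI3 kinase subunit PIK3CD, was 2.01-fold lower (adjusted p = 0.0173), next to the fold minimum, and was named after its values were seen. Its call was lost without either SMARCB1 Dox library (adjusted p = 0.115 and 0.207) and, with a fold below 2, without GFP DMSO replicate 2 or GFP Dox replicate 2, without a filter, with a minimum of 10 counts per library, or with only the groups compared. With library size alone its log2 difference was -0.89 (adjusted p = 0.0645).

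Of the direct partners of the receptors, the insulin receptor and IRS1 were read at moderate levels and IRS2 close to the floor. The insulin receptor INSR, which can pair with IGF1R, ranged from 77.9 to 115 CPM in SMARCB1-line libraries and from 47.2 to 63.2 CPM in the GFP line. Its log2 difference was 0.75 under DMSO (SE 0.26, adjusted p = 0.139 in the quasi-likelihood test) and 0.83 under Dox (SE 0.26, adjusted p = 0.0810), so it was not called. Without GFP Dox replicate 2 the Dox difference was 1.05, past the fold minimum. That fit rests on replicate 1 alone for GFP Dox, where 56.4% of reads aligned to several places. Per kilobase of coding sequence, IGF1R exceeded INSR in each library, by 2.89 to 4.52 times. The adaptor IRS1 had 60.0 to 109 CPM over the 8 libraries and IRS2 0.444 to 1.90 CPM, and neither was called in any comparison. IRS2 had 3 to 21 counts per library, so the lack of a call says little about it. IGF2BP1, IGF2BP2 and IGF2BP3, named for binding IGF2 mRNA, had 289 to 414, 55.4 to 123 and 117 to 269 CPM while IGF2 itself had 4 counts in all. With all libraries none of the 3 was called in any comparison. In SMARCB1 Dox against GFP Dox, the log2 difference of IGF2BP3 was 1.06 without GFP Dox replicate 1. That of IGF2BP2 was 1.02 without GFP Dox replicate 2. Each of these fits rests on a single GFP Dox library.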

How the data were processed

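Ribosome footprints were measured in 8 libraries of G401 cells. The authors captured translating ribosomes with RiboLace, prepared LACEseq libraries, aligned reads with STAR to hg38 and counted them with HTSeq (intersection-strict, coding sequences, GENCODE annotation 42). The deposited values are raw counts per gene. The strand option, adapter trimming and versions are not given in the sources used here. The 5 HTSeq summary rows of each library were left out. Symbols, positions and union coding lengths came from GENCODE annotation 44.

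After filterByExpr by group and TMM scaling, all 8 libraries entered one glmQLFit model with 1 term per group (edgeR 4.0.16, limma 3.58.1, R 4.3.3, DESeq2 1.42.0). Genes were called at an adjusted p (Benjamini-Hochberg) below 0.05 and a fold change above 2. SE was taken from the F statistic. Intervals of ratios are exact binomial on pooled counts (SciPy 1.17.1, 95%) and leave out the spread between libraries. The tests were tested on simulated data. Alternatives were size factors, library size alone, DESeq2's Wald test, 2 other filters, only the groups compared, a replicate block, robust fitting and leaving out each library. The members, lists and tests were chosen with earlier results of these data known. All 10 members and the direct partners were named whatever their values, and list genes where called, up to 8 per comparison by smallest p. Replicates differed by more than sampling noise (chi-square per degree of freedom 14.5 to 45.5), so no library was treated as a copy.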

Additional observations from a re-analysis of the deposited data

How the results depend on the processing

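IGFBP7 stayed called in both comparisons of the lines under each alternative run. With 1 library left out, IGFBP3 was lost in both comparisons of the lines, as given in the report. Among list genes, PDPK1 was called in GFP Dox against GFP DMSO and in the difference between the Dox effects without GFP Dox replicate 2. Its GFP Dox libraries differed widely, at 26.3 and 88.8 CPM, and that fit keeps only replicate 1. When each library had to hold at least 10 counts of a gene, the list genes called fell from 6 to 1 under DMSO and from 9 to 3 under Dox. This filter left HTRA1, PAPPA, STC2, PCSK6 and PLAGL1 untested, whereas PIK3CD was tested and had a fold below 2. Over all genes, the calls under the alternatives that kept every library ranged from 1 to 46 (2 as reported) upon re-expression, 46 of them without a filter. They ranged from 0 to 14 in the GFP line and from 0 to 15 for the difference (0 as reported), both highest without a filter. Between the lines they ranged from 288 to 675 (552) under DMSO and from 377 to 833 (675) under Dox. Under Dox the calls fell further without SMARCB1 Dox replicate 1. Without GFP Dox replicate 2 they rose further in each comparison with GFP Dox. That fit rests on GFP Dox replicate 1 alone, where 56.4% of reads aligned to several places.

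Differences near 0 changed sign, none of them past the threshold, and the cause was not tested. Library size alone put the median of all genes at 0.16 for the difference between the Dox effects, compared with -0.029 as reported. Between the lines under Dox the median was 0.11 with it, compared with -0.012. Under library size alone, the log2 change upon SMARCB1 re-expression was 0.0031 for IGFBP7. That in the GFP line was -0.085 for IGF1R, -0.034 for IGF2R and -0.11 for IGFBP7. The difference between the Dox effects was 0.038 for IGF1R, 0.13 for IGFBP3 and 0.12 for IGFBP7. In the GFP line, IGF1R and IGFBP7 were at -0.027 and -0.026 without a filter and at -0.0039 and -0.0040 under the stricter count minimum. Same-numbered replicates correlated in their deviations by 0.0454 to 0.280, above 0.1 in 5 of 6 pairs of groups, so a pairing was not established. The replicate block changed no count of calls among members by over 1.5 times and gave 0.37 for IGFBP2 upon re-expression and, in the GFP line, -0.0022 for IGF1R and -0.0074 for IGFBP7.

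With 1 library left out, these log2 values spanned 0. Upon SMARCB1 re-expression they ranged from -0.39 to 0.15 for IGF1R, -0.80 to 1.21 for IGFBP2 and -0.44 to 0.15 for IGFBP7. In the GFP line the ranges were -0.11 to 0.11 for IGF1R, -0.081 to 0.15 for IGF2R, -5.47 to 5.62 for IGFBP2, -0.85 to 0.30 for IGFBP6 and -0.44 to 0.34 for IGFBP7. For the difference between the Dox effects they were -0.39 to 0.15 for IGF1R, -5.78 to 5.27 for IGFBP2, -0.15 to 0.022 for IGFBP3 and -0.46 to 0.33 for IGFBP7, and for IGFBP6 between the lines under Dox -0.80 to 0.35. Depth limits IGFBP2, IGF2 and the genes at 0.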

Other observations

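Among the 11097 genes tested, the 5 whose log2 CPM followed that of IGFBP7 most closely over the 8 libraries were PRSS23 (Pearson's r 0.995), ANGPT1 (0.995), NEFH (0.994), SPARC (0.993) and AOPEP (0.992). PRSS23 is a secreted serine protease, ANGPT1 the ligand of the endothelial receptor TIE2, NEFH the heavy neurofilament, and SPARC a collagen-binding matrix protein. Each was higher in every SMARCB1-line library than in every GFP-line library. SPARC had 1898 to 3179 CPM in the SMARCB1 line and 167 to 335 CPM in the GFP line, and NEFH 35.2 to 46.4 CPM and 0.148 to 0.827 CPM. NEFH stood below the filter minimum in every GFP-line library, so it passed the filter through the SMARCB1 line alone. These libraries form 2 sets, those of the SMARCB1 line and those of the GFP line, so r is given as a description, and 162 of the other 11096 genes had r above 0.95.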
